A study of Mus musculus with 3 samples.

Results

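The heat shock genes of activated CD4 T cells were followed across 3 culture media. The set holds 10 genes, taken by symbol from the 23282 gene rows: the regulator Hsf1, the HSP70 genes Hspa1a, Hspa1b and Hspa8, the HSP110 gene Hsph1, the HSP40 gene Dnajb1, the HSP90 genes Hsp90aa1 and Hsp90ab1, and the mitochondrial chaperonin genes Hspd1 and Hspe1. They were chosen by their levels in these same libraries, since Hspa1b was already known to be among the genes with the greatest decrease between DM and CM. Their changes from CM are therefore given as a description, without p-values. The CD4 T cells came from the spleen and lymph nodes of C57BL/6 mice (C57BL/6 J in the study's methods), which the study describes as female and 6 to 8 weeks old unless stated otherwise. All cultures received anti-CD3 and anti-CD28 antibodies at 2 µg/ml each and were harvested after 72 h. CM is RPMI medium with fetal bovine serum, and DM is RPMI made without amino acids and with dialyzed serum. DM+Met is the same medium as DM with 30 µM methionine added. The study reports that its DM still contained methionine. DM therefore differs from CM in the supply of all amino acids and of the small molecules of serum, and DM+Met from DM in the amount of methionine. Each medium has 2 libraries, 6 in all, which the study calls biologically independent. The labels do not say whether they came from separate animals, so the errors measure the spread between these libraries, which may be technical.

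Chaperones help other proteins to fold, and heat shock genes are the set of them that rises when proteins unfold. HSF1 is the transcription factor that switches these genes on, by binding heat shock elements made of alternating GAA and TTC units. HSP70 binds unfolded stretches of new or damaged proteins, HSP40 delivers these clients, and HSP110 releases the nucleotide so that HSP70 can start again. HSP90 acts later and holds near-native clients such as kinases and receptors. HSP60 and HSP10, encoded by Hspd1 and Hspe1, form the folding chamber of the mitochondrial matrix. T cells raise many chaperones when they are activated and begin to grow.

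Depth ranged from 8504743 to 12377296 reads per library, and values are log2(CPM + 1), where CPM is a gene's reads relative to a common library size after TMM scaling. The library labelled DM 1 stood apart. DM library 2 correlated with DM+Met libraries 1 and 2 at r = 0.947 and 0.940 across genes, and with DM library 1 at 0.919, so the changes of all members that involve DM are also given without DM library 1. The ribosomal RNA precursor Rn45s took 31.0% to 38.3% of reads in CM and DM and 15.5% to 20.1% in DM+Met. T cell identity genes were present in every library, with 7 of 8 CD4 T cell markers listed. Their summed level was 1438 to 1503 CPM in CM, 1371 to 1735 in DM and 1481 to 1546 in DM+Met. Single markers went both ways from CM to DM, 4 of the 7 above 0 and 3 below. The log2 change was 1.42 for Cd5, 0.72 for Cd3g and -0.53 for Cd28. Markers of other cells also differed between media. The 7 CD8 T and NK cell markers summed to 119 to 134 CPM in CM, 44.1 to 45.7 in DM and 58.4 to 62.5 in DM+Met, with the NK cell receptor Klrb1c at 0 in CM and Ncr1 at 0 in DM. The 7 B cell markers summed to 87.6 to 103 CPM, 79.9 to 81.8 and 58.5 to 68.9 in the same order, with the B cell factor Pax5 at 0 in every library, and the 8 myeloid markers to 42.8 to 48.7, 51.0 to 59.1 and 65.2 to 96.2. Their part in the results was not tested.

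Hspa1a and Hspa1b, the stress-inducible HSP70 genes, lie side by side on chromosome 17 and are the members with the steepest changes. Both are on the minus strand, Hspa1a at chr17:34969359-34972156 and Hspa1b at chr17:34956429-34959238 (RefSeq, GRCm38.p6). The 250 bases before their start sites, from chr17:34972157-34972406 and chr17:34959239-34959488, are shown because both genes were far lower outside CM and because these stretches are nearly the same. They differ at 3 positions, which are -207, -204 and -2 counted from the start site, and match at 247. Capitals mark GAA and TTC units in a row.
Hspa1a: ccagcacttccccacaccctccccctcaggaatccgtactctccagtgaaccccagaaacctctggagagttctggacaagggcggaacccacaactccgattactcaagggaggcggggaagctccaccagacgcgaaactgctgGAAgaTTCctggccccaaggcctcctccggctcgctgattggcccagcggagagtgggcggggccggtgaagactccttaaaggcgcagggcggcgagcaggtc
Hspa1b: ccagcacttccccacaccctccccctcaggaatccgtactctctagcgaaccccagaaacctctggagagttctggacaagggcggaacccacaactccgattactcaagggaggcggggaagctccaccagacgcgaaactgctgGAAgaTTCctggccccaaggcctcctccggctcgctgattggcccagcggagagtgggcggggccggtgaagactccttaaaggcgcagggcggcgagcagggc
The capitals are 2 exact units at -104 to -97 in each gene, which is a partial heat shock element by the search used here. The search read alternating GAA and TTC units with 2 bases between them on both strands, so that a longer element contains shorter ones. No mismatch was allowed, so elements with an imperfect unit were neither marked nor counted, in these genes or in the table. Of the 32851 windows of the RefSeq table, which run from 250 bases before to 50 after a start site, 15.1% held at least 2 units in a row and 0.603% held at least 3.

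Longer runs of exact units were found in 3 members, and these are shown with 4 flanking bases because they are rare in the table. The mitochondrial pair Hspd1 and Hspe1 is transcribed in opposite directions from overlapping starts on chromosome 1, Hspd1 from the minus strand at chr1:55077833-55088243 and Hspe1 from the plus strand at chr1:55088148-55091317. They share an element of 4 units at chr1:55088059-55088076, at -89 to -72 from the Hspe1 start and at -144 to -127 from an internal Hspd1 start. The other Hspd1 window, at the start of the gene as listed, held no units in a row. Only 8 windows of the table, 0.0244%, held 4 or more units. Hsph1 (chr5:149616843-149636498, minus strand) held 3 units at chr5:149636288-149636300, which lie 16 to 28 bases after the start site of one of its windows and 37 to 49 after that of the other, both of them internal starts of the gene as listed.
Hspe1: tccgTTCtaGAAccTTCcgGAAggcc
Hspd1: ggccTTCcgGAAggTTCtaGAAcgga
Hsph1: cagaTTCtgGAAagTTCtcct
The lines for Hspe1 and Hspd1 are the same site read on its 2 strands. Hsph1 also held 2 units at -54 to -47 from the first of these starts, which is -33 to -26 from the other, and Dnajb1 (chr8:83608175-83612653) held no units in a row in either of its 2 windows. In all, 5 of the 6 members in the table held at least 2 units and 3 held at least 3, and over all genes of the table these shares were 17% and 0.662%. The member counts are not of separate sites, since Hspd1 and Hspe1 share a site and the stretches of Hspa1a and Hspa1b are nearly the same. Windows for Hsf1, Hspa8, Hsp90aa1 and Hsp90ab1 were not analysed here. Such a match is a description of the letters and not of binding.

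**Figure D1:**
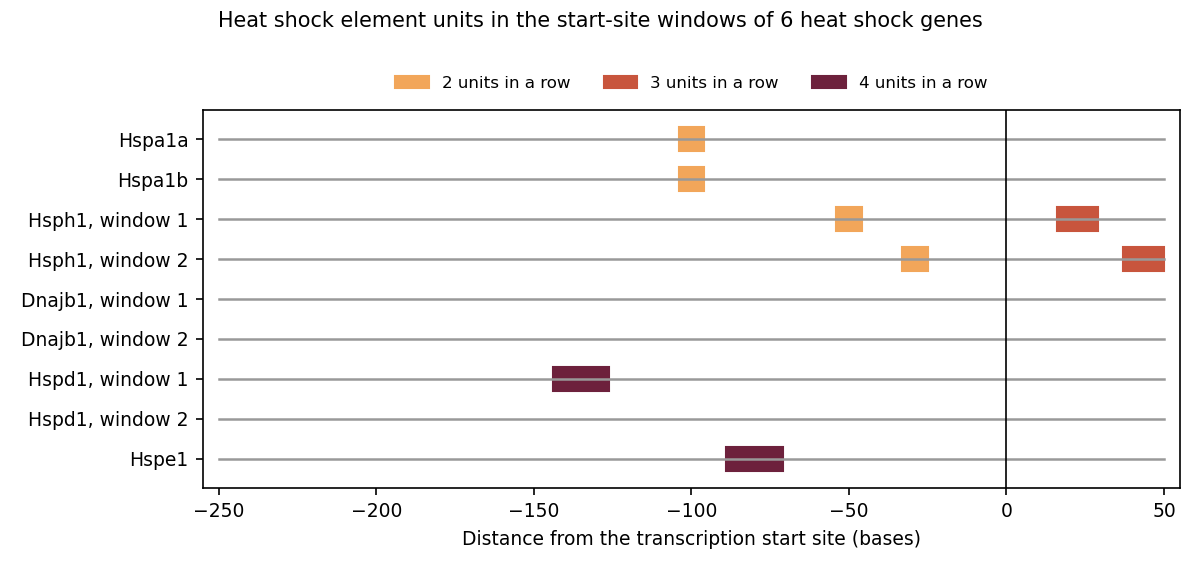
Runs of GAA and TTC units in the start-site windows of the 6 members with a promoter in the RefSeq table, by distance from the transcription start site in bases. Hspa1a and Hspa1b carry 2 units at the same distance, and Hspe1 and window 1 of Hspd1 carry 4 units of the shared site. Window 2 of Hspd1, at the start of the gene as listed, and both Dnajb1 windows are empty.

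The question of the first comparison was how the loss of nutrients from the medium changes these genes. Summed over the 10 genes, the level was 6909 and 7124 CPM in the CM libraries, 2388 and 2478 in DM, with 2709 and 2497 in DM+Met. The CM libraries were thus far above the other 4, which lay close together. Leaving out Rn45s, the 10 genes held 0.924% and 0.948% of the library in CM, 0.357% and 0.367% in DM, with 0.392% and 0.364% in DM+Met. In these bulk cultures, fewer cells of a type and less RNA per cell cannot be told apart. Between DM and CM, 7 of the 10 genes passed the adjusted threshold of 0.05 as lower in DM and 0 as higher, where 9.07% of the 12770 tested genes passed as lower and 7.80% as higher. Both DM libraries were below both CM libraries for 7 members and above for 1, and the shares over all tested genes were 26.2% and 27.9%. The median log2 change of the members was -1.38, and that of all tested genes 0.07. Nothing is read from these counts, since the comparison was used to choose the genes. All 10 passed the filter on low values, Hspa1a through its CM libraries and Hspa1b through those of CM or of DM+Met.

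**Figure D2:**
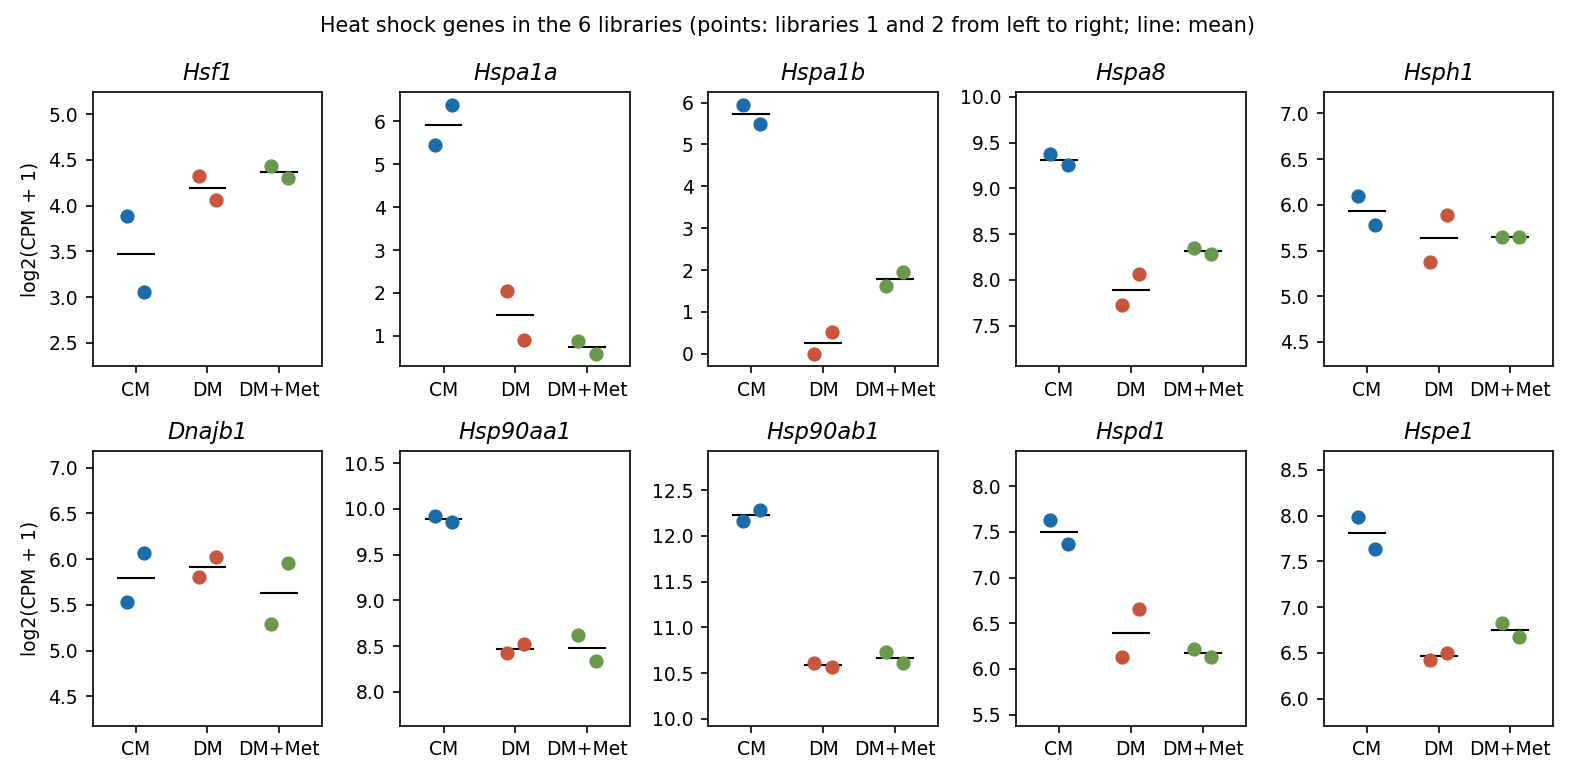
Level of each heat shock gene as log2(CPM + 1) in the libraries of CM, DM and DM+Met, with points for libraries 1 and 2 and a line for the mean of each medium. In 7 panels both CM points lie above all 4 others, Hsf1 has both CM points below them, and the DM points overlap those of CM for Hsph1 and Dnajb1.

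Hsf1 (chr15:76477362-76501155), the regulator itself, was not among the genes that were lower in DM. Its log2 level was 3.89 and 3.05 in the CM libraries, 4.33 and 4.06 in DM, with 4.43 and 4.30 in DM+Met. Every library without the full nutrient set was above both CM libraries, but the CM libraries were farther from each other than the higher of them was from the DM libraries. The log2 change from CM to DM was 0.73 (SE 0.41), and 57 to 246 reads stood behind each value. It was 1.14 without CM library 1, 0.31 without CM library 2 and 0.59 without DM library 1. No measure of HSF1 protein or of its activity is part of these data.

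The inducible pair Hspa1a and Hspa1b was close to the detection limit in DM. Hspa1a had 375 and 644 reads in the CM libraries, 31 and 10 in DM, with 10 and 6 in DM+Met, at log2 levels of 5.45 and 6.38, then 2.06 and 0.91, then 0.88 and 0.59. Hspa1b counted 535 and 342 reads in CM, 0 and 5 in DM, with 25 and 34 in DM+Met, at log2 levels of 5.95 and 5.49, then 0 and 0.53, then 1.63 and 1.95. For each gene the CM libraries were clear of the other 4. A floor of 3 reads, which a count of 0 still allows, corresponds to a log2 level of 0.323 to 0.469, so of the DM libraries 1 was under this floor and the other just above it.

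Since reads from the nearly identical coding parts of these paralogs can be divided between them by the aligner, their sum is also given. It was 104 and 126 CPM in the CM libraries, 3.16 and 1.32 in DM, with 2.93 and 3.36 in DM+Met. The DM and DM+Met libraries overlapped, and both lay far under CM. The log2 change of the sum was -5.21 (SE 0.47) from CM to DM and -4.80 (SE 0.47) from CM to DM+Met. Without DM library 1 the change to DM was -5.63 for the sum, -5.00 for Hspa1a and -5.19 for Hspa1b. On pooled reads the sum was 52.5-fold lower in DM than in CM, with an exact 95% interval of 39.2 to 72.0, and 36.3-fold lower in DM+Met, with an interval of 28.8 to 46.4. These intervals cover counting error only and leave out the spread between libraries, because the reads of each medium were pooled. Several reads can also stem from the same molecule when no molecular identifiers are used, which makes the intervals too narrow. For Hspa1b alone, 877 CM reads stood against 5 DM reads, and its log2 change of -5.46 moved to -7.80 with a pseudocount of 0.1 and to -3.44 with one of 5.

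The share of the pair's reads that fell to Hspa1b was 58.8% (95% Wilson interval 55.6 to 61.9) and 34.7% (31.8 to 37.7) in the CM libraries. In DM it was 0 of 31 reads, with an interval of 0 to 11, and 33.3% (15.2 to 58.3). In DM+Met it was 71.4% (54.9 to 83.7) and 85.0% (70.9 to 92.9). The CM libraries had different shares, and these intervals, which cover counting error only, do not measure the spread between libraries. The coding parts of the paralogs were 99.4% identical in the GENCODE M21 transcripts, with a shared run of 638 bases. Their 3′ untranslated parts, from which a 3′-end library mostly reads, were 47.3% identical with a longest shared run of 24 bases.

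**Figure D3:**
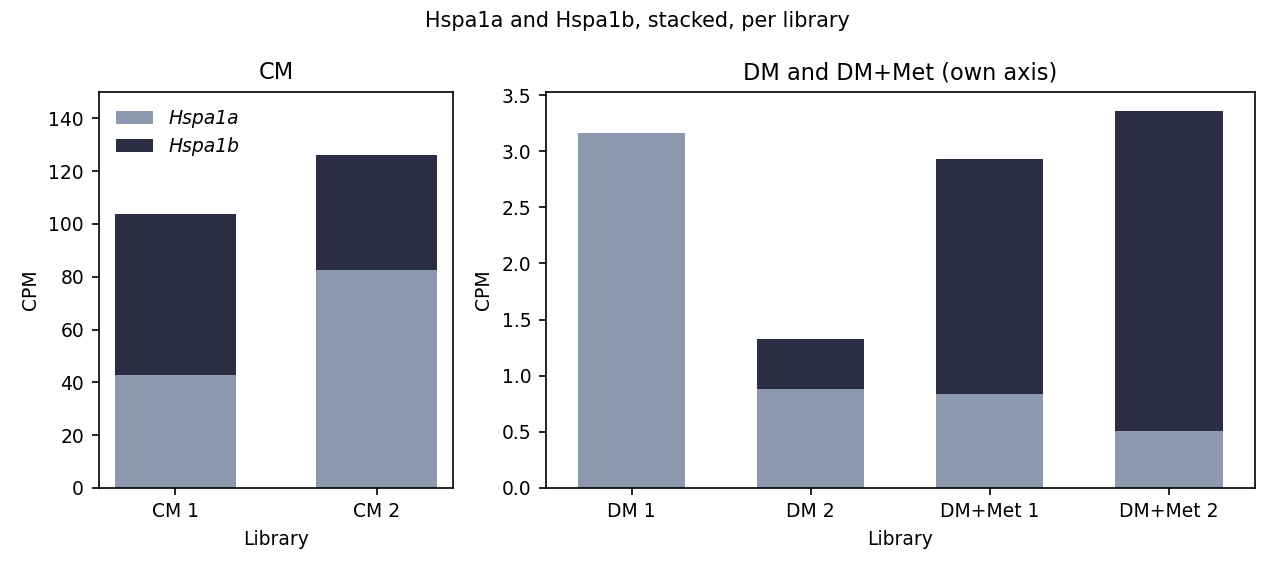
CPM of Hspa1a and Hspa1b stacked in each library, with CM on the left axis and DM and DM+Met on an axis of their own. The CM sums are 104 and 126 CPM and the other 4 sums lie between 1.32 and 3.36, with Hspa1b the greater share in both DM+Met libraries.

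Hspa8 (chr9:40801276-40805202), the constitutive HSP70 gene that serves unstressed cells, was lower in DM by a much smaller factor. Its log2 level was 9.38 and 9.25 in the CM libraries, 7.73 and 8.06 in DM, with 8.34 and 8.29 in DM+Met. The 3 media did not overlap, and DM+Met lay between the other media. The mean CPM was 2.67-fold lower in DM than in CM, a log2 change of -1.42 (SE 0.16), which was -1.25 without DM library 1. From CM to DM+Met the log2 change was -1.0 (SE 0.16), and -0.605 with library totals in place of TMM.

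For the partners of HSP70 the DM and CM libraries overlapped. Hsph1 had log2 levels of 6.09 and 5.78 in CM, 5.38 and 5.89 in DM, with 5.65 and 5.65 in DM+Met, and the DM libraries lay on both sides of the lower CM library while both DM+Met libraries were below it. Dnajb1 had log2 levels of 5.53 and 6.07 in CM, 5.80 and 6.02 in DM, with 5.30 and 5.96 in DM+Met, with all media overlapping. The log2 change from CM to DM was -0.30 (SE 0.25) for Hsph1 and 0.11 (SE 0.29) for Dnajb1. These values were -0.04 and 0.22 without DM library 1.

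Both cytosolic HSP90 genes were lower outside CM. Hsp90aa1 (chr12:110691036-110696395), the stress-inducible form, had log2 levels of 9.92 and 9.86 in the CM libraries, 8.42 and 8.52 in DM, with 8.62 and 8.34 in DM+Met. Hsp90ab1 (chr17:45567778-45573261), the constitutive form, had log2 levels of 12.17 and 12.28 in CM, 10.61 and 10.57 in DM, with 10.73 and 10.61 in DM+Met. In each gene the CM libraries were well above the other 4, and DM and DM+Met overlapped. The mean CPM of Hsp90aa1 was 2.69-fold lower in DM than in CM (log2 change -1.42, SE 0.15), and that of Hsp90ab1 3.10-fold lower (log2 change -1.63, SE 0.13). The log2 changes were -1.38 and -1.65 without DM library 1. A 3′-end library reads near the end of a transcript whatever its length, so the genes are set side by side in CPM. Reads per molecule can still differ between genes, so the shares and ratios are of reads. Hsp90ab1 supplied 61.3% to 69.8% of the reads of the 10 genes in every library, and its CPM was 4.16 to 5.36 times that of Hsp90aa1. This ratio was 4.73 and 5.36 in the CM libraries, 4.58 and 4.16 in DM, with 4.33 and 4.85 in DM+Met, so the media overlapped.

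The mitochondrial chaperonin pair was also lower. Hspd1 had log2 levels of 7.63 and 7.37 in the CM libraries, 6.13 and 6.66 in DM, with 6.22 and 6.13 in DM+Met. Hspe1 had log2 levels of 7.98 and 7.63 in CM, 6.43 and 6.50 in DM, with 6.83 and 6.67 in DM+Met. For both genes all CM libraries were above all others, and for Hspe1 the DM+Met libraries were also above those of DM. The mean CPM was 2.14-fold lower in DM for Hspd1 (log2 change -1.11, SE 0.22) and 2.58-fold lower for Hspe1 (-1.35, SE 0.18). The change of Hspe1 was -1.31 without DM library 1. The change of Hspd1 depended on the libraries used, with -0.84 without DM library 1 and -1.37 without DM library 2. It was -0.97 without CM library 1 and -1.24 without CM library 2. Hspd1 did not pass the threshold without an intensity trend, a setting in which 1329 of 12770 tested genes passed. The ratio of Hspe1 to Hspd1 reads, whose products work as partners, was 1.28 and 1.21 in CM, 1.23 and 0.894 in DM, with 1.53 and 1.46 in DM+Met.

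The next comparison asked whether methionine alone moves these genes in cells kept in DM. Between DM+Met and DM, 0 of the 10 genes passed the limma threshold in either direction, where 0.0157% of all tested genes passed as lower and 0.0392% as higher. At an unadjusted p under 0.05 there were 2, Hspa1b and Hspa8, where 9.69% of all tested genes had such a p, and limma-voom on the recovered reads also gave 0. Both DM+Met libraries were below both DM libraries for 1 member, Hspa1a, and above for 3, Hspa1b, Hspa8 and Hspe1, and the shares over all tested genes were 20.6% and 20.4%. The median log2 change was 0.05 for the members and 0.009 for all tested genes. The DM+Met libraries had TMM scaling factors of 1.16 and 1.22, against 0.897 to 0.938 elsewhere. With library totals in place of TMM, the median of all tested genes became 0.34 and that of the members 0.41. The log2 change was then 0.44 for Hsp90ab1, 0.37 for Hsp90aa1, 0.65 for Hspe1 and 0.79 for Hspa8, which is above the upper 95% limit under TMM for Hsp90ab1, Hsp90aa1 and Hspa8.

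The members nearest to a change were the HSP70 genes. Hspa1b had a log2 change of 1.52 with methionine (95% limits 0.31 and 2.73, adjusted p = 0.413), and 1.26 without DM library 1. With 5 reads in DM, its value depends on the setting, at 3.45 with a pseudocount of 0.1, 0.52 with one of 5 and 3.92 with limma-voom. Hspa1a went the other way, by -0.75 (limits -2.11 and 0.60, adjusted p = 0.760), and by -0.18 without DM library 1. Their sum had a log2 change of 0.41 (limits -0.63 and 1.46, adjusted p = 0.844), which is of smaller size than that of either paralog alone. The change of the sum was 0.83 when DM library 1 was left out and -0.0074 when DM library 2 was. Hspa8 had a log2 change of 0.42 (limits 0.07 and 0.77, adjusted p = 0.425) and 0.26 without DM library 1.

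For the other 7 members, as for Hspa1a, the limits of the change with methionine included 0. The narrowest were those of the HSP90 genes, with -0.22 and 0.37 for Hsp90ab1 (log2 change 0.08, adjusted p = 0.915) and -0.32 and 0.33 for Hsp90aa1 (0.007, adjusted p = 0.994). These limits lie well inside the log2 difference of each HSP90 gene between DM and CM. Hspe1 had a log2 change of 0.29 (limits -0.12 and 0.70, adjusted p = 0.669) and Hspd1 of -0.22 (limits -0.70 and 0.27, adjusted p = 0.816). Hsph1 changed by 0.02 (limits -0.55 and 0.58, adjusted p = 0.993), Dnajb1 by -0.28 (limits -0.93 and 0.36, adjusted p = 0.816) and Hsf1 by 0.17 (limits -0.75 and 1.09, adjusted p = 0.945). Without DM library 1 the changes were 0.10 for Hsp90ab1, -0.04 for Hsp90aa1, 0.25 for Hspe1, -0.48 for Hspd1, -0.24 for Hsph1, -0.39 for Dnajb1 and 0.30 for Hsf1. A p over the threshold does not show that the media are alike. The limits give the sizes these libraries leave possible under TMM scaling only. They leave out the uncertainty of the scaling, and some of the changes with library totals lie outside them.

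**Figure D4:**
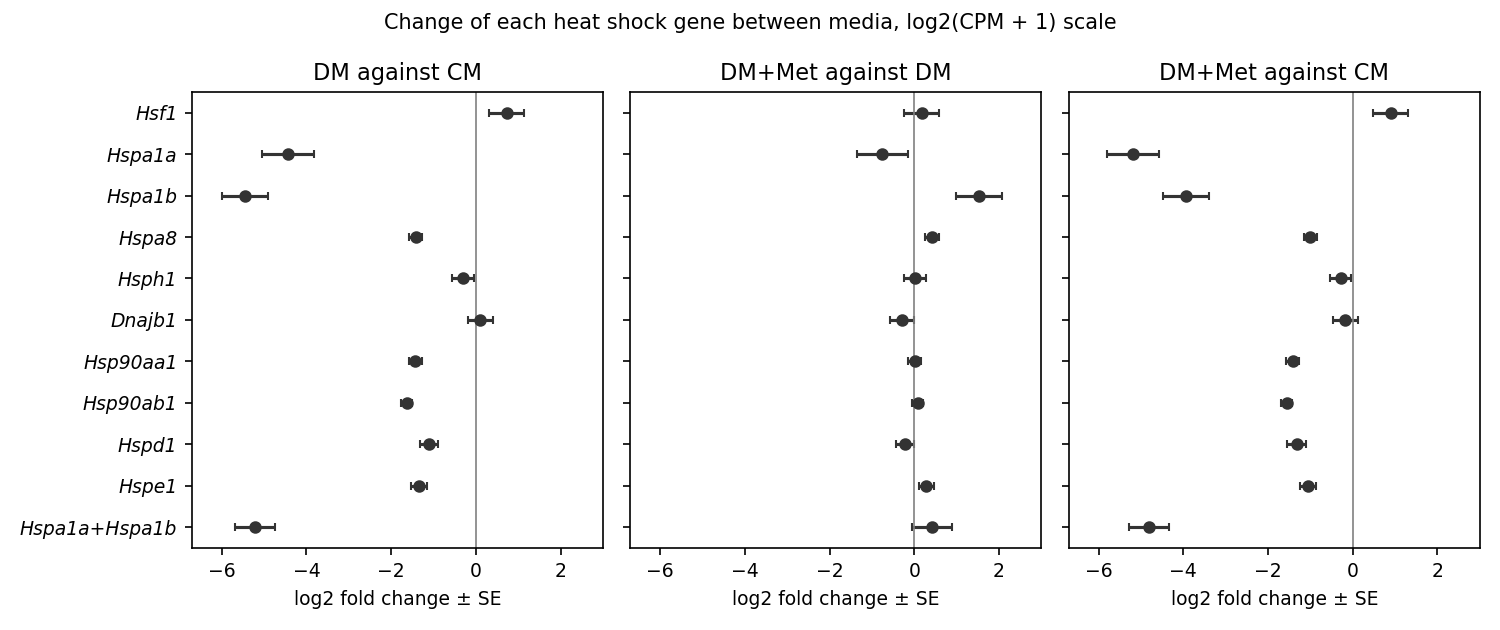
Log2 fold change with its standard error for each heat shock gene and for the sum of Hspa1a and Hspa1b in the 3 comparisons of media, on the log2(CPM + 1) scale. From CM to DM and from CM to DM+Met the sum changed by -5.21 and -4.80, and between DM+Met and DM the HSP90 genes sit at 0.007 and 0.08.

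DM+Met was also set against CM, with which the first comparison shares its control libraries, so its values are given only as a description. As lower, 7 of the 10 genes passed the threshold and 0 as higher, against 8.36% and 6.92% of all tested genes. Both DM+Met libraries were below both CM libraries for 8 members and above for 1, and the shares over all tested genes were 28.7% and 32.2%. The median log2 change was -1.19 for the members and 0.06 for all tested genes, and with library totals it was -0.80 and 0.41. The log2 change was -1.55 (SE 0.13) for Hsp90ab1, -1.42 (SE 0.15) for Hsp90aa1, -1.32 (SE 0.22) for Hspd1 and -1.06 (SE 0.18) for Hspe1. With library totals these were -1.16, -1.02, -0.93 and -0.67. It was -5.18 for Hspa1a (SE 0.61) and -3.93 for Hspa1b (SE 0.54), while Hsf1 had 0.90 (SE 0.41, and 0.48 without CM library 2), Hsph1 -0.28 (SE 0.25) and Dnajb1 -0.17 (SE 0.29). Hspa1b, Hspa8, Hspd1 and Hspe1 did not pass the threshold under every alternative setting. Over these settings the log2 change ran from -4.39 to -2.93 for Hspa1b and from -1.06 to -0.605 for Hspa8. It ran from -1.45 to -0.93 for Hspd1 and from -1.23 to -0.67 for Hspe1. Whether such losses are particular to these genes was not tested.

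Other genes of protein folding were taken from lists. The genes named are those with the largest called changes, so their adjusted p-values, from the same limma fit, only describe these libraries. The lists were written from textbook knowledge, but with earlier results of these data known. Their counts are to be read beside the 9.07% lower and 7.80% higher of all tested genes in DM against CM, and without DM library 1 beside 3.96% and 3.17%. Of the other heat shock factors, small heat shock proteins and HSF1 targets, 18 of 21 were tested, 3 fell in DM against CM and 0 rose, and the median log2 change was -0.55. The small heat shock protein gene Hspb1, which holds unfolded proteins in solution, changed by -2.32 (adjusted p = 0.0490), with log2 levels of 3.68 and 3.96 in CM and 2.40 and 0.61 in DM. It passed the threshold in only 2 of 16 other settings. The HSP110 gene Hspa4l fell, with a log2 change of -1.72 (adjusted p = 0.0258), and so did the ribosome-associated HSP70 gene Hspa14, with -1.07 (adjusted p = 0.0277). Without DM library 1, 0 of the 18 passed, and these 3 were at adjusted p-values of 0.0552, 0.130 and 0.0908.

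Among 26 co-chaperones of HSP70 and HSP90, 3 fell and 1 rose in DM, near the shares of all tested genes, with a median log2 change of -0.15. Without DM library 1, 2 fell and 0 rose. The HSP40 gene Dnajb6, which keeps aggregation-prone proteins soluble, had log2 levels of 7.42 and 7.53 in CM and 5.90 and 5.91 in DM and fell, with a log2 change of -1.57 (adjusted p = 8.89e-04). Fkbp5, an HSP90 partner of steroid receptors, fell with a log2 change of -1.82 (adjusted p = 0.0122), and St13, an HSP70-interacting protein, with -1.17 (adjusted p = 0.00624, and 0.0550 without DM library 1). Ahsa2, of the family that stimulates the HSP90 ATPase, rose by 0.62 (adjusted p = 0.0316, and 0.0936 without DM library 1). The other 22 co-chaperones did not pass the threshold in either direction.

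The cytosolic chaperonin TRiC and prefoldin, which fold actin and tubulin, had 5 of 14 genes lower in DM and 0 higher (4 without DM library 1), with a median of -0.60. The TRiC subunit genes Tcp1, Cct7 and Cct2 fell, with log2 changes of -1.60, -1.46 and -1.27 (adjusted p = 3.22e-04, 9.14e-04 and 0.00217). Tcp1 had log2 levels of 8.64 and 8.71 in CM, 7.10 and 7.04 in DM, with 7.03 and 6.91 in DM+Met, so both CM libraries were above the other 4. Of 15 other mitochondrial chaperones and proteases, 4 fell and 0 rose (2 fell without DM library 1), with a median of -0.32. Afg3l2, a protease of the inner membrane, fell with a log2 change of -1.62 (adjusted p = 0.00448), Lonp1, the main matrix protease, with -0.92 (adjusted p = 0.0107, and 0.0611 without DM library 1) and Hspa9, the mitochondrial HSP70, with -0.82 (adjusted p = 0.00675). The named genes of these lists for which no other value is given also passed without DM library 1.

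With methionine added to DM, 0 genes of these 4 lists passed the limma threshold, with medians of -0.06, 0.19, 0.01 and 0.02 in the order given, and 1, 4, 0 and 2 genes of 18, 26, 14 and 15 had an unadjusted p under 0.05, beside 9.69% of all tested genes. Against CM, DM+Met had 4 other heat shock genes lower, 2 co-chaperones lower and 2 higher, 6 TRiC and prefoldin genes lower and 2 mitochondrial genes lower, beside 8.36% lower and 6.92% higher of all tested genes. The co-chaperone counts are near these shares. Dnajc7, an HSP40 gene that also binds HSP90, was the co-chaperone with the greater increase in that comparison, at 1.33 (adjusted p = 0.00254). Among the genes that fell, the log2 change was -1.71 for Tcp1 (adjusted p = 1.63e-04), -2.29 for Afg3l2 (adjusted p = 6.54e-04) and -1.71 for Dnajb6 (adjusted p = 3.86e-04).

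**Figure D5:**
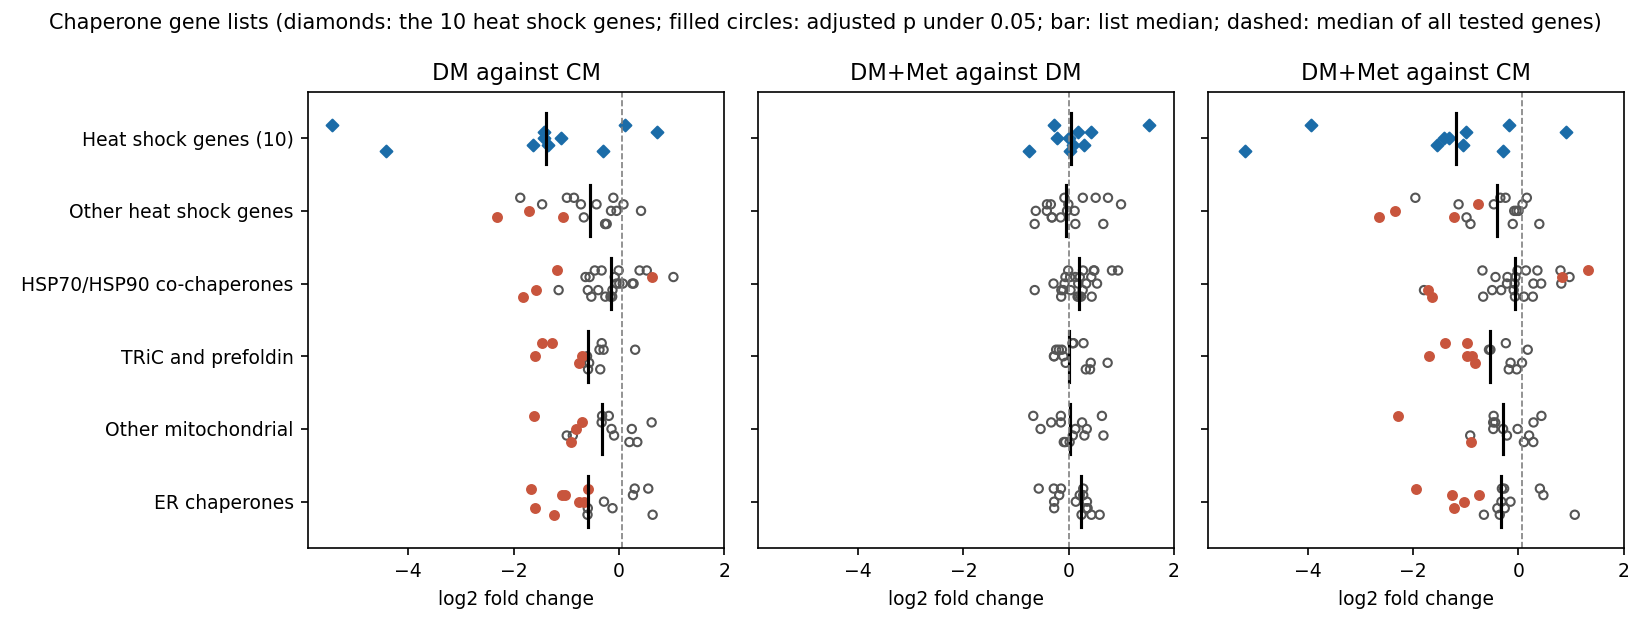
Log2 fold change of every tested gene of 6 chaperone lists in the 3 comparisons, with diamonds for the 10 heat shock genes, filled circles for genes of the other lists with an adjusted p under 0.05, a bar at the list median and a dashed line at the median of all tested genes. In DM against CM the medians run from -1.38 for the 10 heat shock genes to -0.15 for the co-chaperones, and between DM+Met and DM no circle is filled.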

How the data were processed

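RNA of CD4 T cells from 3 media was read from its 3′ ends (QuantSeq kit), in 2 libraries per medium. The submitters' processing notes name Bowtie2, bedtools and mm10. The counting annotation and treatment of strand are not given in the sources used here, so reads where Hspd1 and Hspe1 overlap cannot be separated by strand. That overlap lies at the starts of both genes, away from their 3′ ends. The authors deposited log2 values of TMM-scaled CPM plus 1 for 23282 gene rows. The base and the added 1 follow from equal steps of the values, which also gave the reads (at least 99.776% of values up to 300 reads lay within 0.1 of a whole number).

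Rows with at least 0.946 CPM in 2 libraries (10 reads in a library of median depth) and 15 reads in all were tested (12770). The 3 media entered one limma fit (limma 3.58.1, R 4.3.3, eBayes with an intensity trend, two-sided) with 3 residual and 6.87 prior degrees of freedom and Benjamini-Hochberg adjustment over all tested rows. Differences of log2(CPM + 1) understate the changes of genes with few reads. The fit was run on simulated libraries with the same spread set for all genes. That checks the code, and not how the fit handles the spread between these libraries. Intervals of read shares used scipy 1.17.1. The 10 genes and all lists were chosen with earlier results of these data known. Within the lists, up to 3 called genes per direction and comparison with the largest changes could be named. Alternatives were another scaling, filter, pseudocount, test, prior or set of samples, a replicate block, and each library left out. Marker lists covered CD4 T, B, CD8 T and NK, and myeloid cells. Promoter windows and gene positions are from RefSeq (GRCm38.p6, the build called mm10), and 6 of 10 members had a window.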

Additional observations from a re-analysis of the deposited data

How the results depend on the processing

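Between DM and CM, 5 to 7 members passed the threshold over the alternatives that left out no single library. The count was 5 where at least 10 reads were required in every library, which removes Hspa1a and Hspa1b from the test. Of 12770 tested genes, 795 passed with only the 2 media compared in the fit and 2206 with a pseudocount of 5. As above, nothing is read from these counts. Between DM+Met and DM the member count was 0 under each of these alternatives. Over all tested genes at most 35 of 12812 passed, with library totals, and 0 of 12770 without an intensity trend. With so few calls, a count of 0 members says little. Between DM+Met and CM it was 4 without an intensity trend and 3 to 7 with each library left out. The cause was not tested. For the sum of Hspa1a and Hspa1b, alternatives were added after the data were seen. Its log2 change from CM to DM was -5.73 with a pseudocount of 0.1 and -4.05 with one of 5, and -3.87 with the latter from CM to DM+Met. In DM+Met against DM it ran from -0.0074 to 0.83 with each library left out. Some small changes turned sign. In DM against CM, Dnajb1 had -0.155 without CM library 1. In DM+Met against CM, library totals gave 0.11 for Hsph1 and 0.21 for Dnajb1, and Dnajb1 had 0.16 without DM+Met library 1. The others were in DM+Met against DM. With library totals, Dnajb1 had 0.0741 and Hspd1 0.15. With each library left out, the log2 change ran from -0.24 to 0.28 for Hsph1, from -0.61 to 0.045 for Dnajb1, from -0.13 to 0.15 for Hsp90aa1 and from -0.48 to 0.047 for Hspd1. Library numbers did not pair the samples: deviations of same-numbered libraries correlated at -0.02 between CM and DM, 0.005 between CM and DM+Met and -0.03 between DM and DM+Met. The replicate block gave 7, 0 and 7 members and changed no count. Depth limits Hspa1a and Hspa1b in DM and DM+Met, where 0 to 34 reads stood behind each value.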

Other observations

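Chaperones of the endoplasmic reticulum fold secreted and membrane proteins and answer to another stress response than that of HSF1. Of 16 genes tested, 8 fell in DM against CM and 0 rose, beside 9.07% and 7.80% of all tested genes, and 5 fell without DM library 1. The change was above 0 for 4 of the 16, and the median log2 change was -0.60. P4hb, a disulfide isomerase, had log2 levels of 8.45 and 8.51 in CM, 6.99 and 6.65 in DM, with 6.59 and 6.48 in DM+Met, and fell in DM with a log2 change of -1.66 (limma, adjusted p = 4.86e-04). Another isomerase gene, Pdia6, fell with -1.59 (adjusted p = 0.00270), and Sdf2l1, a partner of the ER HSP70, with -1.24 (adjusted p = 0.0227, and 0.0741 without DM library 1). With methionine 0 of the 16 passed the limma threshold, 0 had an unadjusted p under 0.05, and the median was 0.23, or 0.59 with library totals. Between DM+Met and CM 5 fell, beside 8.36% of all tested genes, among them Hsp90b1, the ER form of HSP90, with -1.26 (adjusted p = 6.63e-04). Of the 13 ER chaperones with a promoter window, 0 held 2 or more heat shock element units in a row. In the other lists such a run was found in 7 of 17 further heat shock genes, 7 of 23 co-chaperones, 3 of 12 TRiC and prefoldin genes and 2 of 10 mitochondrial genes, and over all genes of the table the share was 17%.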
